A study of Mus musculus with 8 samples.

Results

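The receptors for IgG of mouse macrophages are described here across FURIN deficiency and LPS stimulation. The members are the 4 Fc gamma receptor genes Fcgr1, Fcgr2b, Fcgr3 and Fcgr4 and Fcer1g, which encodes the signaling chain shared by the activating receptors. They were chosen by name, as every gene probe whose accession maps to one of these genes, and each was measured by 1 probe, 5 of the 55681 gene probes on the array. All 5 probes were well above background in all 16 channels and none was saturated, so all 5 members were tested among 36947 genes and transcripts in the KO/WT ratios and 36927 in the single channels.

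Fc gamma receptors bind the constant part of IgG and so let macrophages engulf and respond to antibody-coated particles. Fcgr1 encodes the high-affinity receptor, while Fcgr3 and Fcgr4 encode activating receptors of lower affinity. These 3 receptors reach the surface and signal through the FCER1G chain, whose ITAM motif recruits the SYK kinase. Fcgr2b encodes the inhibitory receptor, whose ITIM motif recruits lipid and protein phosphatases, and a cell's response to immune complexes depends on the balance of activating and inhibitory receptors.

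Peritoneal macrophages came from LysMCre-fur(fl/fl) mice (KO), in which Cre is meant to delete Furin in myeloid cells, and from WT littermates, all on the C57BL/6 background. Adherent cells were cultured and then received no LPS or LPS at 1 μg/ml for 1, 4 or 24 h, and RNA was read on 8 Agilent 2-colour arrays, 2 at each of the 4 time points. Each array carried the KO and the WT RNA of its time. In replicate 1 KO was in Cy5 and WT in Cy3, and in replicate 2 the dyes were exchanged, so replicate and dye orientation cannot be told apart. Cre is expressed from the Lyz2 locus in this line, the age, sex and number of mice per array were not given in the sources used here, and no unstimulated cells kept in culture for the longer times were analysed here, so LPS and time in culture cannot be told apart. The growth protocol speaks of 4 h of stimulation throughout, whereas the titles give 0, 1, 4 and 24 h, which were followed here.

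The targeted gene, read here on the arrays alone, did not follow the labels at every time. The authors report FURIN mRNA to be almost absent from macrophages of these mice. The log2 KO/WT ratio of Furin lay between -0.84 and -0.53 on the 6 arrays of 0, 1 and 24 h, but was 0.00 and 0.33 on those of 4 h, where the channels labelled KO were not lower. The ratio of Lyz2 lay between -1.85 and -0.74 on all 8 arrays. All 7 measured macrophage markers were well above background in every channel, and so were all 8 B cell markers, whose summed log2 level was 16.03 to 16.41 in WT and 16.19 to 16.72 in KO without LPS. Of 8 mast cell markers, 7 were well above background in all 16 channels and Ms4a2 in none. Of 9 T and NK cell markers, Cd3d, Cd3e, Cd3g, Cd2 and Nkg7 were above it in all channels and Ncr1 and Klrb1c in none, and of 9 neutrophil markers S100a8, Camp, Elane and Mmp8 in all and S100a9, Ngp, Cxcr2 and Retnlg in none. B cells carry Fcgr2b and mast cells carry Fcgr3, and the part of such cells in the values below was not tested. In RNA of whole cultures, fewer cells of a type and less RNA per cell cannot be told apart.

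The promoters of the members that moved most with LPS are printed because matches to known control motifs can be read in them. Each is 300 bases of the RefSeq table (GRCm38.p6), from 250 bases before to 50 after the start, 5′ to 3′ along the gene, with matches in capitals. Fcgr1 lies at chr3:96293920-96294219 (minus strand), Fcgr4 at chr1:171018676-171018975 (plus strand) and Fcgr3 at chr1:171059354-171059653 (minus strand, the first of 2 entries for this gene).

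Fcgr1: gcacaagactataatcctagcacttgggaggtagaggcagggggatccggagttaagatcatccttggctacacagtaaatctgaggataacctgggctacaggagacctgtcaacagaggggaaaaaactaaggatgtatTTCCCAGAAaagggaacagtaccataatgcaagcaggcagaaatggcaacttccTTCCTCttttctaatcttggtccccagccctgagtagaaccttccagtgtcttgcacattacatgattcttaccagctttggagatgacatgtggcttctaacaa

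Fcgr4: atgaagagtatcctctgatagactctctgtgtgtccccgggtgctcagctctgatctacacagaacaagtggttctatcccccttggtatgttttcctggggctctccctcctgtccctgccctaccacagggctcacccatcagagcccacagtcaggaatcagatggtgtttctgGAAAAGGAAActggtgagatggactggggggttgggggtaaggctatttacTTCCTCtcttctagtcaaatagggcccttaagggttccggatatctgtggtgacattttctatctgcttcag

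Fcgr3: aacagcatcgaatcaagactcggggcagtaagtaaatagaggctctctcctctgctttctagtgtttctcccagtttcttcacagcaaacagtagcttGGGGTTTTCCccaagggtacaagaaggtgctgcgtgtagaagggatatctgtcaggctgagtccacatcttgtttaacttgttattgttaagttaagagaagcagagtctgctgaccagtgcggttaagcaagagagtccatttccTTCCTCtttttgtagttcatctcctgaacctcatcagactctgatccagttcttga

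Both strands of these windows were searched for 4 motifs. The GAS element TTCNNNGAA, a known response element for interferon gamma, was found in Fcgr1 with its first base 109 bases before the start, and 8.30% of all 32851 promoters in the table hold it. The core of the interferon-stimulated response element, GAAA, 2 free bases and GAAA, was found in Fcgr4, 73 bases before the start, and 3.44% of promoters hold it. The PU box GAGGAA, the core recognised by the myeloid factor PU.1, was read on the opposite strand in all 3, 55 bases before the start in Fcgr1, 22 in Fcgr4 and 6 in Fcgr3, and 28.3% of promoters hold it. The NF-kB core, GGG, 2 free bases and TTTCC, was found in Fcgr3, 152 bases before the start, and 1.63% of promoters hold it. None of these matches overlapped another, and none of the 4 motifs was found in the Fcgr2b and Fcer1g windows. These matches describe letters only.

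LPS moved the 4 receptor genes in different directions and at different times. Fcgr1 and Fcgr4 showed their rise at 24 h, Fcgr2b rose at 24 h in both genotypes and already at 4 h in WT, and Fcgr3 fell at 4 h and had partly returned by 24 h. Fcer1g moved least. At 24 h, limma's separate-channel test with Benjamini-Hochberg adjustment called 4 of the 5 members in WT, where 30.4% of all genes were called, and 5 of 5 in KO, where 28.8% were. Of these, 3 in WT and 4 in KO were higher, beside 13.6% and 13% of all genes, and Fcgr3 was lower in both. At 4 h it called 2 of 5 in WT and 1 of 5 in KO, beside 34.8% and 36% of all genes. At 1 h it called 0 of 5 in either genotype, beside 8.58% of all genes in WT and 7.54% in KO, while 1 member in WT and 2 in KO had an unadjusted p under 0.05, beside 18.4% and 18.2% of all genes. With replicate and dye as terms, 1 of 5 in WT and 4 of 5 in KO were called at 1 h (12.3% and 11.8% of all genes), 3 and 2 at 4 h (39.2% and 40.3%) and 5 and 5 at 24 h (35% and 33.4%). Between the LPS times, 2 of 5 in WT and 3 of 5 in KO were called from 1 to 4 h (29.7% and 31.7% of all genes), 4 and 4 from 1 to 24 h (27.6% and 27.2%), and 4 and 4 from 4 to 24 h (29.8% and 30.7%). With the added terms these counts were 4 and 5 (34.2% and 36.3%), 4 and 4 (32.5% and 31.6%), and 5 and 5 (34.7% and 35.5%).

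**Figure D1:**
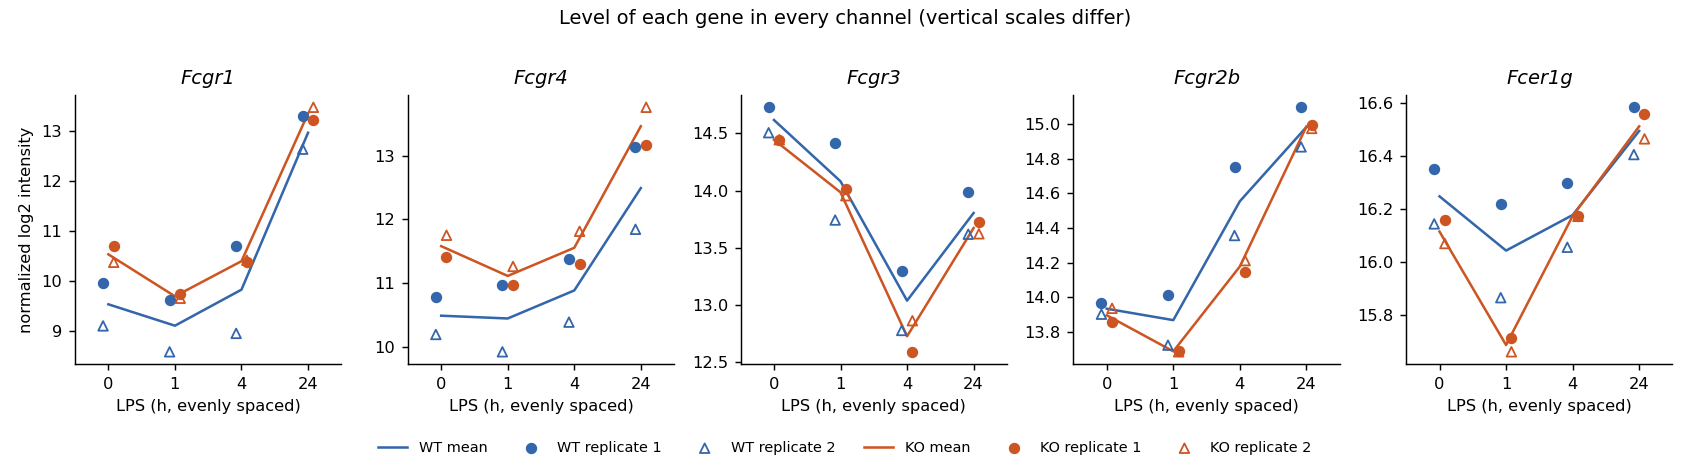
Normalized log2 intensity of each member (vertical axes, scales differ) against hours of LPS, with 1 symbol per channel (circles replicate 1, triangles replicate 2) and lines through the means of the 2 replicates, WT in blue and KO in orange. Fcgr1 and Fcgr4 were highest at 24 h in both genotypes, Fcgr3 was lowest at 4 h, and the WT symbols of replicate 1 lay above those of replicate 2 in every panel.

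Fcgr1, the high-affinity receptor, had the largest response of the 5. Its normalized log2 level in WT was 9.97 and 9.10 without LPS (replicates 1 and 2), 9.63 and 8.59 at 1 h, 10.70 and 8.95 at 4 h, then 13.29 and 12.63 at 24 h. In KO it was 10.69 and 10.37 without LPS, 9.73 and 9.65 at 1 h, 10.38 and 10.41 at 4 h, then 13.22 and 13.47 at 24 h. All 4 channels at 24 h were above all 12 channels of the earlier times, and the earlier times overlapped in WT. The rise from unstimulated to 24 h was 3.43 on the log2 scale in WT (SE 0.46, limma adjusted p = 5.29e-05), which is 10.7-fold, and 2.81 in KO (SE 0.46, limma adjusted p = 0.000314), which is 7.03-fold. In KO the 1 h channels were below those of the other times with no overlap. The steps between neighbouring earlier levels did not pass the test in either genotype. With replicate and dye as terms, the lower level at 1 h in KO passed (log2 change -0.84, limma adjusted p = 0.0153), as did the rise from 1 to 4 h in WT (0.72, 0.0123) and in KO (0.70, 0.0135). In the fit without these terms the WT step turned direction without replicate 1 of 4 h (-0.15, 0.854).

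Fcgr4, an activating receptor that binds IgG2 subclasses, followed Fcgr1. Its WT levels were 10.78 and 10.19 without LPS, 10.97 and 9.92 at 1 h, 11.38 and 10.39 at 4 h, then 13.14 and 11.85 at 24 h. Its KO levels were 11.41 and 11.75, then 10.96 and 11.26, then 11.30 and 11.81, and at 24 h 13.17 and 13.76. The WT channel of replicate 2 at 24 h was above every earlier WT channel and close to the highest earlier KO channel. The rise to 24 h was 2.01 in WT (SE 0.46, limma adjusted p = 0.00358, 4.02-fold) and 1.88 in KO (SE 0.46, limma adjusted p = 0.00573, 3.69-fold). These calls depended on single arrays: the WT value was 1.36 with an adjusted p of 0.0591 without replicate 1 of 24 h and 1.71 with 0.0512 without unstimulated replicate 2, and the KO value was 1.71 with 0.0538 without unstimulated replicate 1. With replicate and dye as terms, a rise of 0.40 at 4 h in WT (limma adjusted p = 0.0382) and a fall of 0.47 at 1 h in KO (0.0473) also passed, as did the rise from 1 to 4 h in WT (0.44, 0.0259) and in KO (0.44, 0.0239). In the fit without these terms the WT step from 1 to 4 h turned direction without replicate 2 of 1 h (-0.084) and without replicate 1 of 4 h (-0.058), and so did the WT change at 4 h without replicate 1 of 4 h (-0.10).

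Fcgr3, an activating receptor present on resting macrophages, was the only member called lower than unstimulated at 4 and 24 h. Its WT levels were 14.73 and 14.51 without LPS, 14.42 and 13.74 at 1 h, 13.30 and 12.78 at 4 h, then 13.99 and 13.62 at 24 h. Its KO levels were 14.45 and 14.45, then 14.02 and 13.96, then 12.59 and 12.86, and at 24 h 13.72 and 13.62. The 4 channels at 4 h were below all others. At 4 h it had fallen by 1.58 in WT (SE 0.21, limma adjusted p = 3.42e-05, 2.99-fold lower) and by 1.72 in KO (SE 0.21, limma adjusted p = 1.58e-05, 3.29-fold lower). From 4 to 24 h it rose again, by 0.77 in WT (limma adjusted p = 0.0132) and 0.95 in KO (0.00320). Over 15 alternative runs this rise was 0.51 to 1.03 in WT, where the call did not hold in all of them. In KO it was 0.68 to 1.08 and the call held. At 24 h it was still 0.81 below unstimulated in WT (change -0.81, adjusted p = 0.00891) and 0.77 below in KO (change -0.77, 0.0128). The 24 h calls did not hold with the software's processed signals (-0.40 with 0.292 in WT, -0.37 with 0.315 in KO) and were lost without either of 2 arrays in WT and 3 in KO, where the adjusted p was between 0.0667 and 0.122. With replicate and dye as terms, the fall at 1 h passed in WT (-0.54, 0.00958) and in KO (-0.46, 0.0241), and without replicate 1 of 1 h the WT fall was 0.87 (change -0.87, 0.0407).

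Fcgr2b, the inhibitory receptor, rose in both genotypes. Its probe is printed 10 times on the array, and the SD of the log2 KO/WT ratio over these spots was 0.04 to 0.05 on each array. WT levels were 13.97 and 13.90 without LPS, 14.01 and 13.72 at 1 h, 14.75 and 14.36 at 4 h, then 15.10 and 14.87 at 24 h. KO levels were 13.86 and 13.94, then 13.69 and 13.69, then 14.14 and 14.21, and at 24 h 15.00 and 14.98. The 4 channels of 24 h were all above those of the earlier times in their own replicate and genotype. The rise at 24 h was 1.05 in WT (SE 0.13, limma adjusted p = 3.15e-05, 2.07-fold) and 1.09 in KO (SE 0.13, limma adjusted p = 2.39e-05, 2.13-fold). At 4 h it was 0.62 in WT (SE 0.13, limma adjusted p = 0.00203) and 0.28 in KO (SE 0.13, 0.132, or 0.0287 with replicate and dye as terms). With the processed signals the KO value was 0.91 and passed (0.00221), where the median of all genes was itself moved by 0.48. The difference between these 2 responses was tested as the change of the KO/WT ratio, which was -0.34 (SE 0.19, limma adjusted p = 1.00, or 0.670 with the replicate term).

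Fcer1g, the shared signaling chain, stayed within a narrow range. WT levels were 16.35 and 16.14 without LPS, 16.22 and 15.86 at 1 h, 16.30 and 16.05 at 4 h, then 16.58 and 16.40 at 24 h. KO levels were 16.16 and 16.07, then 15.71 and 15.66, then 16.17 and 16.17, and at 24 h 16.56 and 16.46. In both genotypes the 24 h channels were the highest with no overlap, in KO the 1 h channels were also apart as the lowest, and in WT the 3 earlier times overlapped. The rise at 24 h was 0.40 in KO (SE 0.13, limma adjusted p = 0.0314) and 0.25 in WT (SE 0.13, 0.189, or 0.0379 with replicate and dye as terms). The KO call was lost without any one of the 4 arrays of these times (adjusted p between 0.0735 and 0.175). At 1 h the KO change was -0.43 (0.0638, or 0.00496 with replicate and dye as terms), and it also passed when only genes well above background in at least 4 channels were tested (0.0456). With the processed signals the change at 4 h passed in WT (0.53, limma adjusted p = 0.0189) and in KO (0.74, 0.00450), against -0.07 and 0.06 otherwise, but these signals moved the median of all genes by 0.49 in WT and 0.48 in KO. With replicate and dye as terms the rise from 4 to 24 h passed in WT (0.32, 0.00973) and in KO (0.34, 0.00630), but with the processed signals the values were -0.090 and -0.15, where the median of all genes was moved by -0.56 and -0.58.

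**Figure D2:**
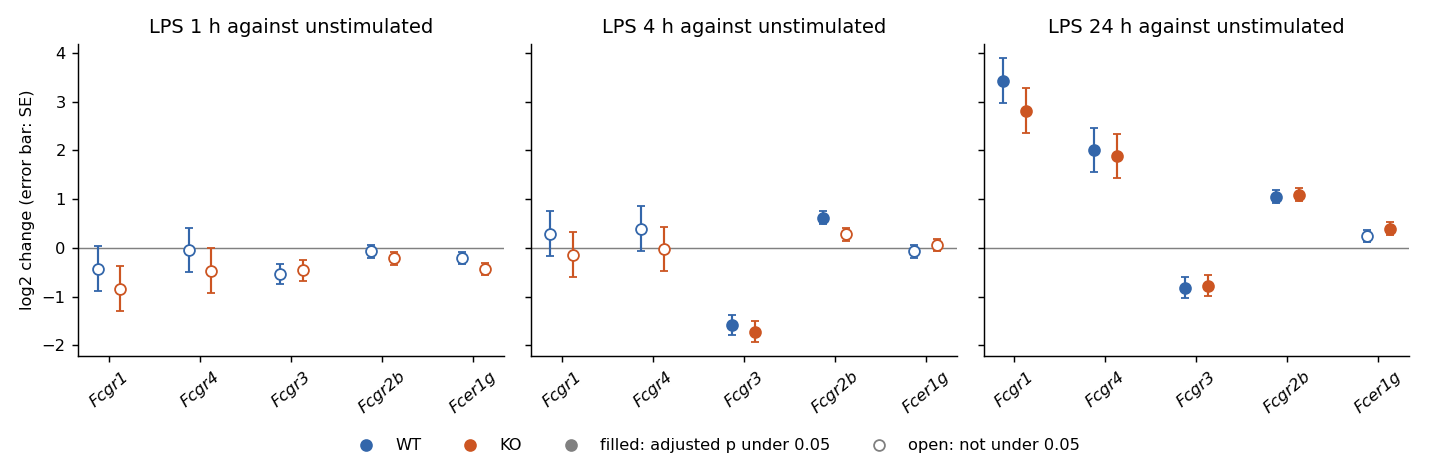
Log2 change from unstimulated (vertical axis) of the 5 members after 1, 4 and 24 h of LPS in WT (blue) and KO (orange), with the standard error of the limma fit as bars and filled symbols for an adjusted p under 0.05. At 24 h Fcgr1, Fcgr4 and Fcgr2b were above 0 and Fcgr3 below 0 in both genotypes, and at 4 h Fcgr3 was the only member called in both.

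Marker levels of the culture also differed between the times. The sum of the 7 macrophage markers was 19.04 to 19.31 in WT and 18.80 to 18.81 in KO without LPS, and 17.90 to 18.01 and 17.21 to 17.39 at 24 h. This sum includes Lyz2, the gene of the Cre locus, which had the highest mean level of the 7 (16.61) and was lower in KO on all 8 arrays. The summed log2 level of 7 markers of large peritoneal macrophages was 16.17 to 16.62 in WT and 16.53 to 16.55 in KO without LPS, and 13.36 to 13.66 and 13.88 to 14.04 at 24 h. The sum of the 8 B cell markers was 15.28 to 15.34 in WT and 15.42 to 15.61 in KO at 24 h. The sum of the 8 mast cell markers was 13.12 to 13.61 in WT and 13.45 to 13.99 in KO without LPS, and 15.05 to 15.54 and 15.80 to 15.84 at 4 h, when Fcgr3 was lowest, with Hdc up by 5.11 in WT and 4.95 in KO and none of the other 7 called in either genotype. The sum of the 9 neutrophil markers was 13.11 to 13.24 in WT and 13.04 to 13.19 in KO without LPS, and 14.62 to 15.93 and 15.28 to 16.05 at 24 h, but the markers went both ways: S100a8 was up by 3.77 in WT and 4.50 in KO and Camp by 1.83 and 1.63, while Mmp8 was at -1.64 and -1.65 and Elane at -0.86 and -0.86. The sum of the 6 dendritic cell markers was 15.90 to 16.06 in WT and 15.53 to 15.57 in KO without LPS, lower in KO with no overlap, and 14.91 to 14.97 and 14.94 to 14.95 at 24 h. Most of this sum was Siglech, with a mean log2 level of 15.33, beside 10.03 for Cd209a, the next highest. Xcr1 was well above background in 0 channels. The sum of the 8 markers of mesothelial cells and fibroblasts was 9.91 to 9.96 in WT and 9.93 to 10.15 in KO without LPS, and 11.13 to 11.20 and 11.44 to 11.50 at 24 h. Of these 8, Dcn had the widest range over the channels (7.38 to 10.96), and Col1a2, the next highest, reached 8.67. Well above background were 5 in WT and 4 to 5 in KO without LPS, and 3 and 3 to 4 at 24 h. The sum of the 9 T and NK cell markers was 13.50 to 14.01 and 13.85 to 14.07 without LPS, and 13.04 to 13.05 and 13.19 to 13.20 at 24 h, and that of the 5 eosinophil markers lay between 10.47 and 11.54 over all times. The part of these shifts in the receptor levels was not tested.

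Whether FURIN deficiency changes the receptors was asked with the KO/WT ratio on each array. Over all genes tested, the log2 ratios of the 2 replicate arrays had a negative Pearson's r at every time. It was -0.050 unstimulated, -0.085 at 1 h, -0.167 at 4 h and -0.149 at 24 h. Fcgr1 and Fcgr4 tended to read higher in KO, and Fcgr3, Fcgr2b and Fcer1g close to even. In the fit of all 8 arrays limma called 0 of the 5 members at any time point, beside 0%, 0%, 0.0108% and 0.0217% of all genes unstimulated and at 1, 4 and 24 h, and 0 of 5 for the mean over the times, beside 0.595%. Unadjusted, 1, 1, 1 and 0 members had p under 0.05 at the 4 times, beside 5.79%, 5.56%, 4.3% and 3.39% of all genes, and 2 for the mean, beside 10.7%. The methods' t-test gave 0 members at each time. Because the replicate number is also the dye orientation and its effect recurred at all times, the values with replicate as a term are given beside these: that fit called 2 of 5 unstimulated (1.08% of all genes), 0 at 1 h (0.59%), 0 at 4 h (0.566%), 1 at 24 h (0.585%) and 2 for the mean (6.06%). Unadjusted, it gave 2, 3, 4 and 2 members with p under 0.05 at the 4 times, beside 11.2%, 11.2%, 8.86% and 7.68% of all genes. For the mean it gave 5 (Fcgr1 and Fcgr4 higher, the others lower), beside 17.9%. That fit removes the difference between the 2 replicates, so its p-values do not measure the spread between them.

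The log2 KO/WT ratio of Fcgr1 was 0.72 and 1.27 without LPS, 0.11 and 1.07 at 1 h, -0.32 and 1.46 at 4 h, then -0.07 and 0.84 at 24 h, replicate 1 first. It was above 0 on 6 of 8 arrays, and replicate 2 was the higher at every time. KO and WT channels did not overlap without LPS or at 1 h and did overlap at 4 and 24 h. This compares 2 channels with 2, and the share of all genes without overlap was not counted. The mean was 1.00 without LPS (SE 0.40, limma adjusted p = 0.784, and 0.0181 with the replicate term). Over the times it was 0.63 (SE 0.20, limma adjusted p = 0.253, and 0.00144 with the replicate term), a 1.55-fold higher level in KO.

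The ratio of Fcgr4 was 0.63 and 1.56 without LPS, -0.00 and 1.34 at 1 h, -0.09 and 1.43 at 4 h, then 0.03 and 1.92 at 24 h. It was near 0 in replicate 1 at each LPS time and above 1 on all arrays of replicate 2. KO and WT channels did not overlap without LPS or at 24 h, again 2 against 2 with no share over all genes counted. The mean was 1.09 without LPS (SE 0.51, limma adjusted p = 0.910, and 0.00452 with the replicate term) and 0.97 at 24 h (SE 0.51, limma adjusted p = 1.00, and 0.00829). Over the times it was 0.85 (SE 0.25, limma adjusted p = 0.223, and 0.000119 with the replicate term), 1.80-fold. Without the 4 h arrays, where Furin was not lower in the channels labelled KO, the mean of the other times was 0.91 for Fcgr4 (adjusted p = 0.298, and 0.000716 with the replicate term) and 0.66 for Fcgr1 (0.207, and 0.000714).

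The other members read close to even. Fcgr3 had ratios from -0.71 to 0.21, below 0 on 5 of 8 arrays, with a mean of -0.18 (limma adjusted p = 0.624). Fcgr2b had ratios from -0.61 to 0.11, below 0 on 6 of 8, with a mean of -0.15 (0.479), and both arrays at 4 h were below 0, at -0.61 and -0.14. Fcer1g had ratios from -0.51 to 0.12, below 0 on 6 of 8, with a mean of -0.12 (0.494), and its lowest pair was that of 1 h, -0.51 and -0.20. The KO channels were below the WT channels with no overlap for Fcgr3 without LPS, for Fcgr2b at 1 and 4 h and for Fcer1g at 1 h. These too were 2 channels against 2, with no share over all genes counted. None of the 3 passed with the replicate term (adjusted p of the mean 0.0902, 0.0839 and 0.153). The shift of the ratio between unstimulated and stimulated cells was called for 0 of 5 members at 1, 4 and 24 h, beside 0% of all genes at each, and for 0 of 5 with the replicate term (0%, 0.0433% and 0.211%). Before adjustment 0 members had p under 0.05 at these 3 times, beside 1.43%, 2.92% and 3.32% of all genes, and 1, 2 and 1 with the replicate term, beside 3.88%, 6.49% and 6.97%.

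**Figure D3:**
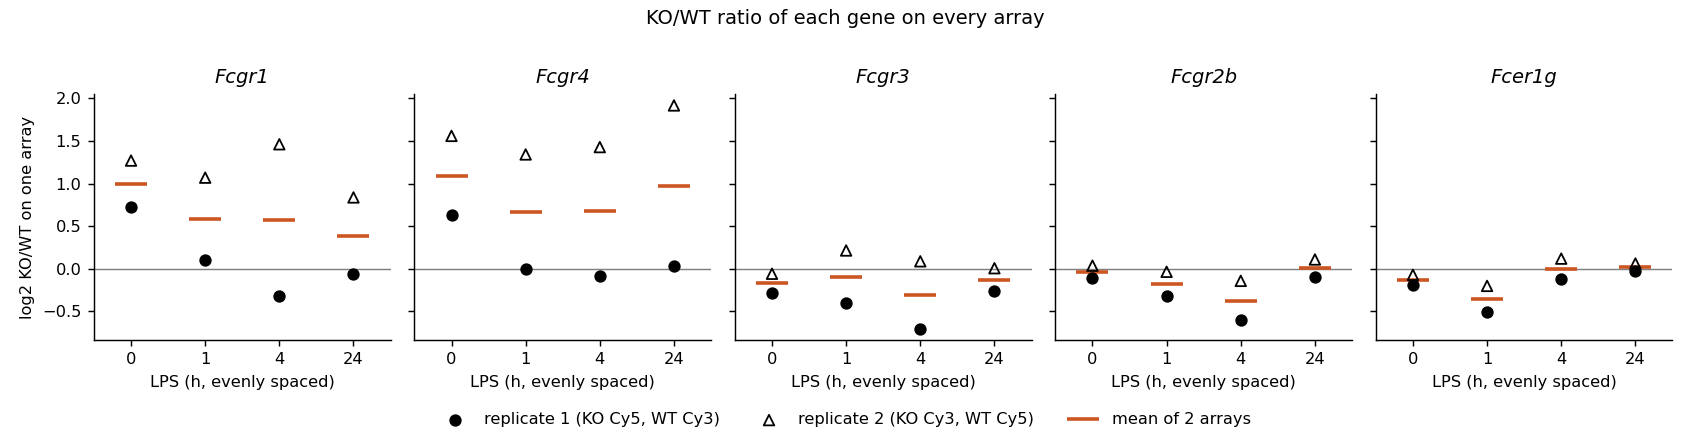
Log2 KO/WT ratio on each of the 8 arrays (vertical axis) against hours of LPS for the 5 members, with filled circles for replicate 1, open triangles for replicate 2 and an orange bar for their mean. For Fcgr1 and Fcgr4 the replicate 2 arrays lay between 0.84 and 1.92 and the replicate 1 arrays between -0.32 and 0.72.

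The replicates behind these ratios differed more in WT than in KO. For Fcgr1 the WT level of replicate 1 exceeded that of replicate 2 by 0.66 to 1.75 over the 4 times, while the KO replicates differed by -0.25 to 0.32. For Fcgr4 the WT difference was 0.59 to 1.30 and the KO difference -0.60 to -0.30, in the opposite direction at all 4 times. In WT replicate 1 was the higher for all 5 members at all 4 times. The replicate term of the KO/WT ratio was -1.05 for Fcgr1 (SE 0.16, limma adjusted p = 0.00274), -1.42 for Fcgr4 (SE 0.13, 0.000131) and -0.48 for Fcgr3 (SE 0.11, 0.0212), and it was -0.27 for Fcgr2b (0.0766) and -0.19 for Fcer1g (0.193). It was called for 9.91% of all genes. Dye, animals and culture cannot be told apart here.

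The members' patterns over the 16 channels differed. Fcgr1 and Fcgr4 were the most alike pair (Pearson's r 0.94), Fcgr2b followed Fcgr1 (0.86) and Fcer1g followed Fcgr2b (0.84), while Fcgr3 had r between -0.33 and -0.02 with the others. The channels share arrays, dyes and the time course, so these values are descriptions. Among 12043 named genes well above background in at least 12 channels, those most like Fcgr1 were LOC547349 (0.98), the sialic acid receptor gene Siglec1 (0.97) and the vanin gene Vnn3 (0.97). Those most like Fcgr4 were LOC547349 (0.95), the lectin receptor gene Klra2 (0.95) and Dock4 (0.93). Fcgr3 was most like the HDL receptor gene Scarb1 (0.98), Cul7 (0.98) and Vangl1 (0.98), Fcgr2b like the ceruloplasmin gene Cp (0.97), Mtmr9 (0.97) and Serpina1a (0.96), and Fcer1g like Plcb3 (0.91), Tmem219 (0.90) and the macrophage factor gene Maf (0.90).

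Downstream of the receptors, most genes of the inhibitory arm fell. Of 10 phosphatases and inhibitory adaptors, 8 in WT and 9 in KO were lower at 4 h and 0 were higher, beside 19.3% and 19.8% of all genes called lower, and the list's median change was -1.34 in WT and -1.67 in KO where that of all genes was near 0. The largest falls in WT were those of Inpp5d, the SHIP1 lipid phosphatase recruited by FCGR2B (-3.47, limma adjusted p = 3.63e-11), Dok2 (-2.78) and Dok3 (-2.41). In KO Inpp5d fell by 3.39. At 24 h 8 of 10 were lower in both genotypes, beside 16.8% and 15.8%, though 3 in WT and 4 in KO with the processed signals.

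The proximal kinases went both ways. Of 11 ITAM adaptors and kinases, 4 were higher and 5 lower at 4 h in both genotypes, beside 15.5% of all genes called higher and 19.3% lower in WT and 16.2% and 19.8% in KO. The adaptor Tyrobp (-1.63 in WT, -1.65 in KO), the kinase Tec (-2.08 and -1.91) and the SRC family kinase Fgr (-1.52 and -1.36) fell. At 24 h 3 were higher and 7 lower in WT, beside 13.6% and 16.8% of all genes, and 3 and 6 in KO, beside 13% and 15.8%. Fgr (-2.94 and -2.82), Tyrobp (-2.23 and -2.26) and Hcst (-1.88 and -2.08) had the largest changes. Lyn, which phosphorylates ITAM and ITIM motifs, was the only gene of the 6 lists called in the KO/WT mean without the replicate term (0.35, SE 0.05, limma adjusted p = 0.0286). This call did not hold with the processed signals (0.421), an intensity trend in the variance (0.308) or a smaller offset in the background correction (0.114), and it was lost without any one array but replicate 1 of 24 h (adjusted p between 0.0836 and 0.127). With the replicate term calls were made in all 6 lists: 1 higher among these 11 genes, 1 higher and 1 lower of 21 adaptors and lipid enzymes, 1 higher of 10 inhibitory genes, 2 higher and 1 lower of 24 actin genes, 2 higher of 8 regulators of Fcgr1, and 3 higher and 1 lower of 12 other Fc receptors, beside 6.06% of all genes called in either direction.

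Most regulators of Fcgr1, which are the interferon gamma pathway and myeloid factors, rose at 4 h. Of 8 such genes, 6 were higher and 2 lower at 4 h in both genotypes, beside 15.5% and 19.3% of all genes in WT and 16.2% and 19.8% in KO, and 6 and 1 with the processed signals. Jak2 rose by 3.28 in WT and 3.27 in KO, and the transcription factor gene Irf1 by 1.88 and 1.59. At 24 h 2 were higher in both genotypes, among them Jak2 (2.26 and 2.21), while 4 in WT and 2 in KO were lower, with Ifngr1, a receptor chain for interferon gamma, at -1.91 and -1.82. Of all genes 13.6% were higher and 16.8% lower in WT at that time and 13% and 15.8% in KO, and with the processed signals 2 of the 8 were lower in WT and 1 in KO. With the replicate term Irf1 was higher in KO at 24 h (KO/WT 0.96, limma adjusted p = 0.00486, against 0.0975 without it).

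Genes of lipid signaling and of the actin machinery of the phagocytic cup showed no single direction. Of 21 adaptors and lipid enzymes, 4 were higher and 9 lower at 4 h in WT, beside 15.5% and 19.3% of all genes, and 3 and 7 in KO, beside 16.2% and 19.8%. With the processed signals these were 5 and 5 in WT and 4 and 7 in KO. The PI3K adaptor gene Pik3ap1 rose by 2.19 in WT and 2.16 in KO, Lcp2 by 2.11 and 2.03, and Lat2 changed by -1.96 and -2.05. At 24 h 2 were higher and 8 lower in both genotypes, beside 13.6% and 16.8% of all genes in WT and 13% and 15.8% in KO. Of 24 actin genes, 5 were higher and 7 lower at 4 h in both genotypes, but 11 and 5 in WT and 12 and 5 in KO with the processed signals, where 20018 of all 36927 genes were called in WT and 18580 in KO and the median of all genes was higher by 0.49 and 0.48. The kinase gene Pak1 changed by -2.07 in WT and -1.95 in KO, and the WASP partner gene Wipf1 by -2.04 and -2.01. At 24 h 2 actin genes were higher and 9 lower in WT, and 1 and 11 in KO, but 3 higher and 3 lower in both genotypes with the processed signals.

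**Figure D4:**
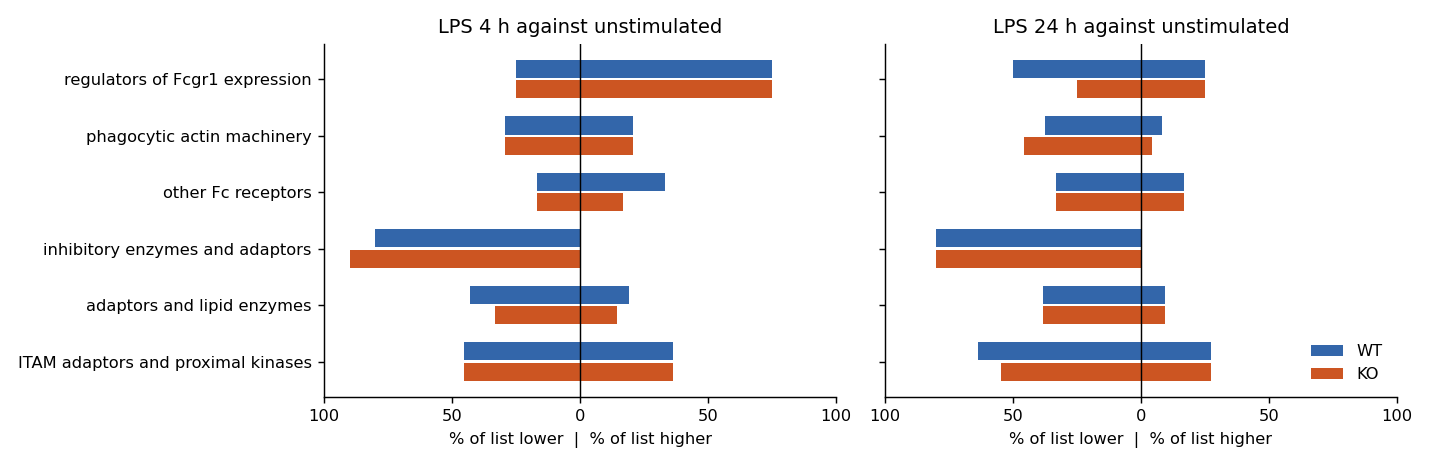
Percent of the measured genes of each of 6 lists (rows) that were called lower (bars to the left) or higher (bars to the right) after 4 h and 24 h of LPS, WT in blue and KO in orange, at an adjusted p under 0.05. The inhibitory enzymes and adaptors had bars to the left alone at both times, 8 of 10 in WT.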

How the data were processed

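The authors scanned the arrays, extracted spot intensities with Agilent Feature Extraction 10.7.3 and deposited the median intensity of each spot in both dyes, with the software's processed signals. A deposited table of normalized log2 ratios of Cy5 to Cy3, described by the authors, served as an alternative. Median intensities were processed with limma 3.58.1 (statmod 1.5.0) in R 4.3.3: normexp with an offset of 50, loess within and quantile normalization between arrays, outlier-flagged spots left out (1 spot of Fcgr2b), and spots of a probe averaged. The brightest probe stood for a gene, and a mean log2 intensity of at least 6 was required. KO/WT ratios of the 8 arrays were fitted with 1 coefficient per time point and 4 residual degrees of freedom, single channels by separate-channel analysis with a within-spot correlation of 0.0907. P-values were adjusted by Benjamini-Hochberg over all genes tested. Statements on overlap rest on 2 channels per genotype and time and are descriptions, as the share of all genes without overlap was not counted. The number of arrays limits the precision, and whether the replicates came from separate animals was not given beyond their being called biological replicates, so p-values measure only the spread between these samples. Fits with a replicate term take out the difference between the 2 replicates, so their p-values measure what is left over the times. The 4 times of a replicate count as separate arrays in every fit.

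Replicate numbers recur at each time point. The difference between replicates in the KO/WT ratio correlated across genes between the time points (r 0.476 to 0.680, 6 pairs), so the replicate term, here also a dye term, is given where it changed the call of a member. The members and the gene lists were chosen with earlier results of these data known. Named genes are the members, the 3 genes most like each, and of each list at most 3 called genes with the largest change per comparison. Lyn, S100a8, Hdc, Camp, Mmp8, Elane and Irf1 at 24 h were singled out after their values were seen. Of the marker and pathway genes, Cd68, Trac, Ly6g and Fcrl2 were not analysed here. The values of 1 listed gene are not reported here.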

Additional observations from a re-analysis of the deposited data

How the results depend on the processing

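The rise of Fcgr1 at 24 h (3.43 in WT, 2.81 in KO) and the fall of Fcgr3 at 4 h kept their direction and their side of the threshold in every alternative run: Fcgr1 was between 2.99 and 3.86 in WT and between 2.65 and 2.97 in KO, with adjusted p up to 0.00227 and 0.00573. No member passed in a KO/WT comparison in any alternative but the replicate block, and of 495 KO/WT values at the times and for their mean under the alternatives 5 gained a call, 0 lost one and 15 turned direction; of 450 LPS values against unstimulated 12 gained, 14 lost and 18 turned. The replicate block (pairing, also a dye term) raised the members called to 2 unstimulated, 1 at 24 h and 2 for the mean (also 2 without the 4 h arrays, a choice made after seeing the data), to 1 in WT and 4 in KO at 1 h, to 2 in KO at 4 h, and between 1 and 4 h from 2 to 4 in WT and from 3 to 5 in KO. It changed no other count of members called by over 1.5 times. The filter on background gave 1 in KO at 1 h. The processed signals gave 3 in KO at 4 h and 2 in WT between 4 and 24 h, and moved the median of all genes by 0.49 in WT and 0.48 in KO at 4 h and by -0.21 in KO at 24 h, and between 4 and 24 h by -0.56 in WT and -0.58 in KO. The cause of these differences was not tested.

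Among KO/WT values at each time and LPS values against unstimulated, the following turned direction. Fcer1g KO/WT at 4 h was 0.042 with Aquantile, 0.042 with loess only, 0.043 in the authors' table and 0.0745 with the processed signals, against -0.0037 as reported. With the processed signals WT values were 0.075 for Fcgr2b and 0.014 for Fcer1g at 1 h and 0.53 for Fcer1g at 4 h, beside moves of the median of all genes of 0.10 at 1 h and 0.49 at 4 h, and Fcgr4 in KO at 4 h was 0.33 (0.066 with Aquantile). Leaving out single arrays gave KO/WT values for Fcgr1 from -0.32 to 1.46 at 4 h and from -0.067 to 0.84 at 24 h, for Fcgr4 from -0.0042 to 1.34 at 1 h and -0.086 to 1.43 at 4 h, for Fcgr3 from -0.40 to 0.21 at 1 h, -0.71 to 0.085 at 4 h and -0.27 to 0.0039 at 24 h, for Fcgr2b from -0.11 to 0.034 unstimulated and -0.10 to 0.11 at 24 h, and for Fcer1g from -0.12 to 0.12 at 4 h and -0.025 to 0.059 at 24 h. WT changes at 1 h were -0.95 to 0.094 for Fcgr1, -0.57 to 0.48 for Fcgr4 and -0.21 to 0.079 for Fcgr2b, and at 4 h -0.58 to 1.17 for Fcgr1, -0.10 to 0.89 for Fcgr4 and -0.19 to 0.051 for Fcer1g. KO changes at 4 h were -0.29 to 0.023 for Fcgr1 and -0.28 to 0.23 for Fcgr4. Between the LPS times the WT step from 1 to 4 h turned without single arrays for Fcgr1 (-0.15), Fcgr4 (-0.084 and -0.058) and Fcer1g (-0.044), and so did that from 1 to 24 h for Fcgr3 in WT (0.061), while that from 4 to 24 h turned for Fcer1g with the processed signals (-0.090 in WT, -0.15 in KO). The change of the KO/WT ratio, called for no member in any alternative, also turned without single arrays for Fcgr1 at 1 and 4 h, for Fcgr4 and Fcgr3 at all 3 times and for Fcgr2b at 24 h, and with the processed signals for Fcgr4 at 24 h (0.077). Over the runs without single arrays, members called ranged from 0 to 1 in WT at 1 h, from 2 to 5 in KO at 24 h, from 2 to 4 in WT between 1 and 24 h and from 1 to 4 between 4 and 24 h.

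Over all genes, calls ranged from 0 to 2239 for the KO/WT mean (220 in the fit reported), from 0 up to 400 for KO/WT unstimulated, 218 after 1 h, 209 after 4 h and 216 after 24 h (0, 0, 4 and 8 reported). For LPS they ranged at 1 h from 1811 to 4537 in WT (3168 reported) and from 1482 to 4375 in KO (2784), and at 4 h up to 20018 in WT (12864). The methods' t-test called 2 genes at 1 h and 0 at the other times after adjustment, and 1716, 1771, 1121 and 1490 at an unadjusted p under 0.05.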

Other observations

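Of 12 other measured Fc receptor genes, 8 were well above background in all 16 channels. Fcgrt, the neonatal receptor that recycles IgG, fell in both genotypes. It was at -1.50 in WT and -1.68 in KO at 4 h (limma adjusted p = 0.000525 and 0.000205) and at -2.75 and -3.06 at 24 h (3.15e-06 and 1.21e-06). Trim21, the cytosolic receptor for antibody, rose by 3.28 in WT and 3.25 in KO at 4 h (2.41e-10 and 2.75e-10), and at 24 h was higher by 1.53 and 1.79 (5.49e-07 and 1.23e-07), after values of -0.64 and -0.63 at 1 h (0.00501 and 0.00682). In all, 4 of the 12 were higher and 2 lower at 4 h in WT, beside 15.5% and 19.3% of all genes, and 2 and 2 in KO, beside 16.2% and 19.8%. With the processed signals 8 in WT and 6 in KO were higher at 4 h, where 20018 and 18580 of all 36927 genes were called and their median was higher by 0.49 and 0.48. With the replicate term 5 in each were higher, where 39.2% and 40.3% of all genes were called in either direction. At 24 h 2 were higher and 4 lower in both genotypes, beside 13.6% and 16.8% in WT and 13% and 15.8% in KO, and 4 and 4 in KO with either of these settings.

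Receptor genes known from B cells and mast cells went in both directions. The IgE receptor chain gene Fcer1a of mast cells was at -1.76 in WT and -1.39 in KO at 24 h (limma adjusted p = 0.00273 and 0.0137), and the B cell IgE receptor gene Fcer2a at -1.77 and -1.81 (0.000133 and 0.000116). The B cell gene Fcrla was at -2.86 and -3.18 at 4 h (1.05e-07 and 3.94e-08), and at -0.63 and -1.11 at 24 h. Fcrl1 was higher at 4 h, by 1.36 and 0.99 (6.51e-05 and 0.00106). Fcrlb, well above background in 11 channels, was higher at 24 h by 1.75 and 1.33 (1.39e-06 and 1.97e-05). Fcrl5 and Pigr, with values between -0.05 and 0.58, passed in no comparison with unstimulated cells. The part of these cells in the values was not tested.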
